A study of Mus musculus with 15 samples.

Results

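The haemoglobin and erythroid genes followed here were 7 named members: the adult alpha globins Hba-a1 and Hba-a2, the adult beta globins Hbb-bs and Hbb-bt, the haem synthesis gene Alas2, the erythropoietin receptor Epor and erythropoietin itself, Epo. They were chosen by name, for the blood held in a kidney sample and the hormone system that controls red cell number, and each was taken from the probes whose RefSeq accession maps to it. The array held 39429 non-control probes, which named 20659 genes, and 16055 genes passed the filter on dim probes. Of the 7 members 6 passed it, each well above background on all 15 arrays, and Epo did not, being well above background on 2 of 15. Each member had 1 probe with 1 spot per array.

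The arrays measured kidney RNA of male C57/BJ mice, 1 mouse per array, 20 weeks after an operation at 6 weeks of age. The operation was removal of the left kidney (uninephrectomy, here 1 kidney) or a sham procedure in which the kidney was handled and left in place, and the mice then ate either a high-fat diet or chow, which the labels also call low fat. There were 4 low-fat sham, 4 low-fat 1-kidney, 3 high-fat sham and 4 high-fat 1-kidney arrays, and the labels state 6 mice per group. The whole kidney was used, no transgene or sorting was involved, and no step to clear blood from the tissue is given in the sources used here. In such bulk RNA, fewer red cells and less globin RNA per red cell cannot be told apart.

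A level is the log2 of the scanner signal minus the 75th percentile of the array's non-control probes, so 0 is that percentile and 1 unit is a doubling. Slides 1 and 2 held the high-fat mice, with both operations on each slide, and were read on scan day 1. Slide 3 held the low-fat sham mice and slide 4 the low-fat 1-kidney mice, both read on scan day 2. The diets thus cannot be told apart from the scan days, nor the low-fat operations from their slides. Between 60.5% and 73.4% of spots per array were well above background, from 65.7% to 73.4% on the high-fat and from 60.5% to 65.6% on the low-fat arrays, and the number of arrays limits the precision. The measured markers of kidney segments had a mean level of 3.84 to 4.09 in the 4 groups and none of the 9 passed the test for diet or surgery.

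Haemoglobin is a tetramer of alpha and beta globin chains, each holding a haem group, and it is made in red cell precursors and carried by red cells, whose youngest form, the reticulocyte, still holds globin RNA. Alas2 is the red cell form of the first and rate-limiting enzyme of haem synthesis. Epo is made by interstitial fibroblasts of the kidney when oxygen is low, and acts on Epor on red cell precursors in the marrow and spleen. Globin RNA in an unsorted tissue is often read as a measure of the blood it holds.

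The 250 bases before the start of the 4 globin genes and Alas2 are shown because these genes are switched on together in red cell precursors and their levels are compared below. The sequences are from RefSeq on GRCm38.p6, where all 7 members matched, and run 5' to 3' on the gene's strand; the array's design names an older build, so its own coordinates are not used. Hba-a1 lies at chr11:32283422-32283671 and Hba-a2 at chr11:32296242-32296491, both on the plus strand, Hbb-bs at chr7:103827929-103828178 and Hbb-bt at chr7:103813924-103814173, both on the minus strand, and Alas2 at chrX:150547167-150547416 on the plus strand. Capitals mark matches on either strand to 4 kinds of word: GATA with A or T before it and A or G after it, as bound by GATA factors; CACCC, as bound by erythroid Klf1; the CCAAT box; and TATAA, the core of the TATA box. Adjoining matches run together.
Hba-a1: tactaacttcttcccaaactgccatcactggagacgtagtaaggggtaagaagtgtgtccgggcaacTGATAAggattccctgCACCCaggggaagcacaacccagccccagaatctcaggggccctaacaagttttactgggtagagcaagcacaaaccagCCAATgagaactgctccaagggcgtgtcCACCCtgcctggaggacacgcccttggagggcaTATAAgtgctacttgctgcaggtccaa
Hba-a2: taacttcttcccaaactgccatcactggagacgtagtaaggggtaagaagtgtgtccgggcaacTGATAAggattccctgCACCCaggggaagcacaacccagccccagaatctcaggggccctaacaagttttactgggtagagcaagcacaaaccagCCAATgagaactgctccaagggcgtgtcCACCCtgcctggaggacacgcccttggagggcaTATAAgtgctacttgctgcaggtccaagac
Hbb-bs: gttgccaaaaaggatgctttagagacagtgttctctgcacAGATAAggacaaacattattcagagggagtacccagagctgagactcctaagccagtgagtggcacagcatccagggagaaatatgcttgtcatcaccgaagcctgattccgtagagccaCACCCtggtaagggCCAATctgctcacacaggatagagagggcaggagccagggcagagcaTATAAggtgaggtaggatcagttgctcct
Hbb-bt: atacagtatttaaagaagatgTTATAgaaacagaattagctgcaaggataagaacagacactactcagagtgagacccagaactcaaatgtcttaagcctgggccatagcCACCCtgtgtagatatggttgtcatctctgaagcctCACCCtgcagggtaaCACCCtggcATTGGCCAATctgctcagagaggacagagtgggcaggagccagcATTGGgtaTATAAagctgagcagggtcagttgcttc
Alas2: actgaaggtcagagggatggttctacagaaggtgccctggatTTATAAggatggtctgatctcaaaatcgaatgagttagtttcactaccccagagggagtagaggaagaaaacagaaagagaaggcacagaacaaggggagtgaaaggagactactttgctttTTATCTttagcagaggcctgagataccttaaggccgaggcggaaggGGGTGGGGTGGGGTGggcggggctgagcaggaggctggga

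The stretches before Hba-a1 and Hba-a2 share an unbroken identical run of 247 bases, whereas the longest run shared by Hbb-bs and Hbb-bt is 14 bases. All 4 kinds were present before Hba-a1, Hba-a2 and Hbb-bs. Hbb-bt held 3 matches to CACCC, 3 to CCAAT and 2 to TATAA, and none to the GATA words. Alas2 held 1 GATA word, 3 adjoining CACCC matches and 2 overlapping TATAA matches, and no CCAAT. Among 32851 promoters of the same length, the GATA words were found in 26.5%, CACCC in 52.0%, CCAAT in 33.8% and TATAA in 22.8%. ACGTG, a form of the core of the site bound by hypoxia-inducible factors, was found in 16.6% of them and before none of the 7 members. The form GCGTG, which the Hba-a1 and Hba-a2 stretches hold, was not counted, so absence of the core is not shown. These matches describe letters and not bound sites.

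The low-fat kidneys carried the 4 globins at closely similar levels on all 8 arrays. Hba-a1 read 7.46, 7.15, 7.24 and 7.40 on the low-fat sham arrays and 7.31, 7.09, 7.42 and 7.19 on the low-fat 1-kidney arrays. Hba-a2 read 8.63, 8.28, 8.31 and 8.37 on the sham and 8.17, 7.99, 8.25 and 8.36 on the 1-kidney arrays. In both genes the groups overlapped, and the spread within a group was 0.14 to 0.16 (SD, n = 4).

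Hbb-bs, the beta chain gene nearer the upstream control region of the locus, read 3.31, 3.12, 3.28 and 3.44 in low-fat sham and 3.35, 2.90, 3.59 and 3.13 in low-fat 1-kidney kidneys. Hbb-bt, the second adult beta gene, read 6.50, 6.14, 6.14 and 6.42 in low-fat sham and 6.48, 6.05, 6.65 and 6.24 in low-fat 1-kidney kidneys. The low-fat groups overlapped for both genes. Levels of different probes depend on the probe as well as on the RNA, so the genes are compared below by their differences only.

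The high-fat arrays were more scattered, for Hbb-bs and Hba-a1 in both high-fat groups and for Hba-a2 in high-fat sham. Hbb-bs read 5.0, 3.69 and 2.04 in high-fat sham and 4.77, 4.72, 3.14 and 3.77 in high-fat 1-kidney kidneys, so its SD was 1.49 (n = 3) and 0.79 (n = 4), against 0.13 in low-fat sham. Hba-a1 read 8.15, 7.27 and 7.0 in high-fat sham and 7.62, 7.95, 6.81 and 6.90 in high-fat 1-kidney kidneys. Hba-a2 read 9.09, 8.62 and 7.63 in high-fat sham and 8.43, 8.45, 8.61 and 8.25 in high-fat 1-kidney kidneys. In all 3 genes the highest array was high-fat sham 1, and for Hba-a2 and Hbb-bs the lowest was high-fat sham 3, of the same group.

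Hbb-bt had a narrow spread on both diets. It read 6.29, 5.98 and 5.98 in high-fat sham and 5.73, 6.00, 5.83 and 5.63 in high-fat 1-kidney kidneys. Its SD was 0.18 (n = 3) and 0.16 (n = 4) there, and 0.19 and 0.27 in the low-fat sham and 1-kidney groups.

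Alas2 read 2.16, 1.83, 1.89 and 2.25 in low-fat sham, 2.06, 1.72, 2.29 and 1.68 in low-fat 1-kidney, 2.08, 1.40 and 1.53 in high-fat sham and 1.76, 2.12, 1.03 and 0.89 in high-fat 1-kidney kidneys. The lowest readings were those of high-fat 1-kidney 3 and 4, and all 4 groups overlapped. Epor read -0.47, -1.0, -1.22 and -1.62 in low-fat sham, -0.49, -0.57, -1.19 and -1.07 in low-fat 1-kidney, -0.28, 0.80 and -0.54 in high-fat sham and -0.32, -0.32, -0.88 and -1.27 in high-fat 1-kidney kidneys. A single array, high-fat sham 2, stood above the 75th percentile for Epor.

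**Figure D1:**
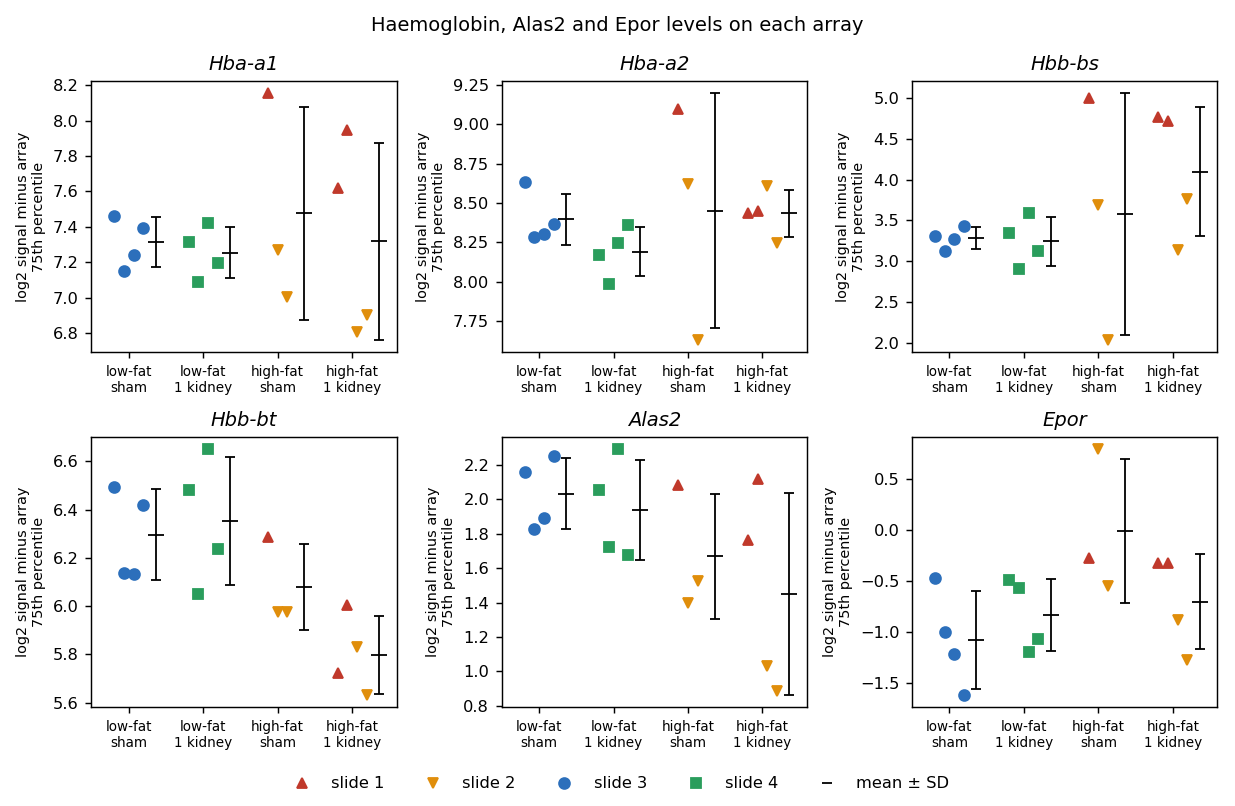
Level of each tested gene on each array (log2 signal minus the array's 75th percentile, a separate axis range per gene) by group, with the marker showing the slide and the bar the group mean ± SD. The slide 1 arrays lie above the slide 2 arrays for Hba-a1, Hbb-bs and Alas2, and the high-fat 1-kidney arrays lie below the low-fat 1-kidney arrays for Hbb-bt.

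Epo could not be followed in these kidneys. It was well above background on low-fat sham 1, at -3.79, and on high-fat 1-kidney 3, at -6.05, and not well above background on the other arrays. Those 2 arrays belong to different diets and operations. No fold is given, since in every comparison most arrays on both sides were not well above background.

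The diet question in sham mice asked whether kidneys with both organs in place held more or less of these transcripts on the high-fat diet. None of the 6 tested members passed (limma, Benjamini-Hochberg adjusted p under 0.05 over all 16055 genes), where 13.9% of all genes did, and 1 member, Epor, had an unadjusted p under 0.05, as did 30.2% of all genes. Epor was 1.07 higher on the high-fat diet (2.10-fold, SE 0.35, limma adjusted p = 0.0547), with 3 high-fat against 4 low-fat arrays that overlapped. The call for Epor was made in several other settings, for example with adjusted p = 0.0417 by limma without low-fat sham 1 and 0.0317 without high-fat sham 3. It was not made with the slide as a random effect or with only the compared groups. Nor was it made without high-fat sham 2, which read 0.80 where high-fat sham 1 and 3 read -0.28 and -0.54. The globins differed by 0.16 for Hba-a1, 0.05 for Hba-a2, 0.29 for Hbb-bs and -0.22 for Hbb-bt, with limma adjusted p from 0.407 to 0.916. The 95% interval for Hbb-bs ran from -0.85 to 1.43, so a change of more than 2-fold upward lies within it. The median difference of the 6 members was 0.11, against -0.02 over all genes tested.

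In mice with 1 kidney, 1 globin gene passed the test for diet. Hbb-bt fell by 0.56 (1.47-fold lower, SE 0.15, limma adjusted p = 0.0266), and all 4 high-fat arrays, 5.63 to 6.00, lay below all 4 low-fat arrays, 6.05 to 6.65. This was 1 of 6 members called, in a comparison where 14.2% of all genes were called and 6.52% were called lower. It was also the 1 member with an unadjusted p under 0.05, as had 29.7% of all genes. The other globins did not pass, with differences of 0.86 for Hbb-bs (limma adjusted p = 0.265), 0.24 for Hba-a2 (0.521) and 0.06 for Hba-a1 (0.899). With quantile normalization Hba-a2 read -0.0028 and Hba-a1 -0.15, and Hba-a1 was also below 0 with median scaling (-0.028) and without high-fat 1-kidney 1 (-0.038) or 2 (-0.15). Alas2 was 0.49 lower on the high-fat diet (limma adjusted p = 0.224) and Epor 0.13 higher (0.825), both with overlapping groups. Alas2 was called with slides 1 and 2 as a fixed block (limma adjusted p = 0.0366). The Hbb-bt call was lost (limma adjusted p 0.0653 to 0.0845) without high-fat 1-kidney 1 or 4 or low-fat 1-kidney 1 or 3, and with the slide fitted as a random effect (limma adjusted p = 0.361).

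Surgery moved none of the members past the test on either diet. On the low-fat diet, where 0.00623% of all genes (1 of 16055) were called, the 6 differences lay between -0.20 for Hba-a2 and 0.25 for Epor, each with a limma adjusted p of 0.9999; 3.23% of all genes and none of the members had an unadjusted p under 0.05. On the high-fat diet, where 0% of genes were called and 4.65% had an unadjusted p under 0.05, the difference of 1-kidney minus sham mice was 0.52 for Hbb-bs and -0.69 for Epor (limma adjusted p = 0.999 for both). Without high-fat sham 3 it was -0.25 for Hbb-bs. The 95% intervals were wide, from -0.61 to 1.66 for Hbb-bs and from -1.44 to 0.05 for Epor, and narrowest for Hbb-bt on the low-fat diet, from -0.27 to 0.38. Within slide 1 (2 arrays against 1) Epor differed by -0.04 and within slide 2 (2 against 2) by -1.21. Hba-a2 differed by -0.65 within slide 1 and 0.30 within slide 2, and Hbb-bs by -0.25 and 0.59, each in opposite directions. Hba-a1, Hbb-bt, Alas2 and Epor were lower in 1-kidney mice within both slides. The interaction of diet and surgery, where 0% of genes were called and 1.36% had an unadjusted p under 0.05, was largest in size for Epor, at -0.94, and passed for none of the members. No member had an unadjusted p under 0.05 for surgery on the high-fat diet or for the interaction.

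**Figure D2:**
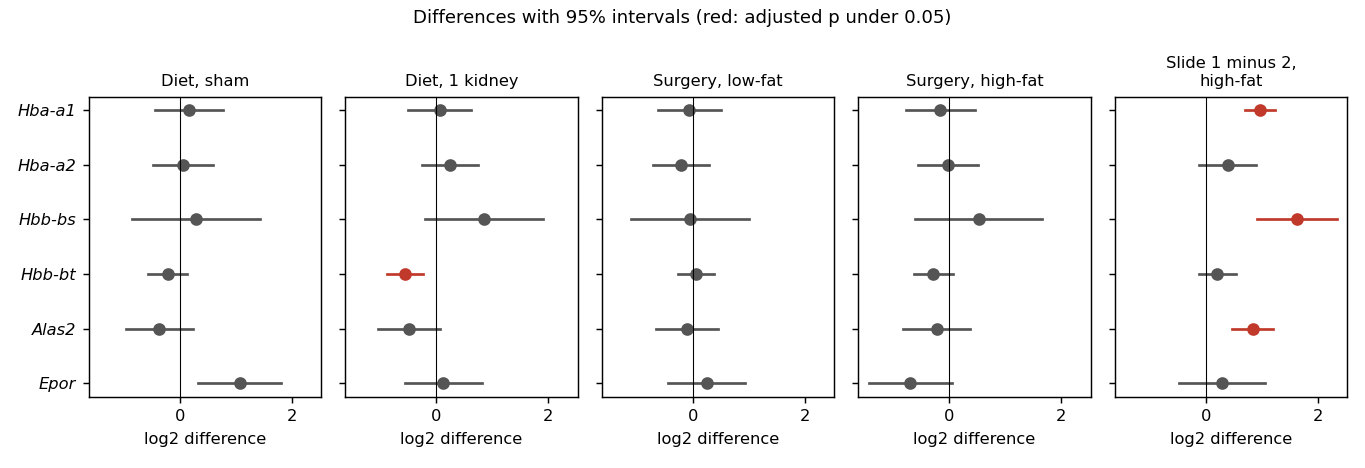
Difference in log2 level of each tested gene (points) with its 95% interval (lines) for the diet and surgery comparisons and for slide 1 minus slide 2 within the high-fat diet. Red points passed limma's test, which are Hbb-bt for diet in 1-kidney mice and Hba-a1, Hbb-bs and Alas2 for the slide comparison.

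Between the 2 high-fat slides, 3 members differed, all higher on slide 1. Hbb-bs was 1.63 higher on slide 1 than on slide 2 (3.1-fold, SE 0.33, limma adjusted p = 0.00322), estimated within the surgery groups, Hba-a1 0.96 higher (1.95-fold, SE 0.12, adjusted p = 0.000285) and Alas2 0.84 higher (1.79-fold, SE 0.17, adjusted p = 0.00352). The 3 arrays of slide 1 read 5.0, 4.77 and 4.72 for Hbb-bs, 8.15, 7.62 and 7.95 for Hba-a1 and 2.08, 1.76 and 2.12 for Alas2. The 4 arrays of slide 2 read 3.69, 2.04, 3.14 and 3.77 for Hbb-bs, 7.27, 7.0, 6.81 and 6.90 for Hba-a1 and 1.40, 1.53, 1.03 and 0.89 for Alas2. The slides did not overlap for any of the 3 genes.

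These 3 of 6 members were called higher on slide 1, in a comparison where 14.6% of all genes were called higher and 31.0% were called in either direction; 42.3% had an unadjusted p under 0.05, as had the same 3 members. Hba-a2 was 0.40 higher on slide 1 (limma adjusted p = 0.223), Hbb-bt 0.20 higher (0.336) and Epor 0.29 higher (0.567), and the slides overlapped for each. The median of the 6 members was 0.62, against -0.04 over all genes. Slides hold different mice, so slide and mouse cannot be told apart. Hbb-bs did not pass with only the high-fat arrays in the fit (limma adjusted p = 0.0558) or with the replicate number as a block (0.0509).

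Averaged over the 4 globins, the haemoglobin level was 6.32 ± 0.14 in low-fat sham, 6.26 ± 0.20 in low-fat 1-kidney (SD, n = 4 each), 6.40 ± 0.74 in high-fat sham (n = 3) and 6.41 ± 0.35 in high-fat 1-kidney kidneys (n = 4). The order of the groups has no weight, since neighbours differed by less than their spread. The slide means were 6.85 ± 0.26 on slide 1 (6.64 to 7.13) and 6.07 ± 0.30 on slide 2 (5.66 to 6.39), and no array of slide 2 reached slide 1. Among single arrays, high-fat sham 1 was highest at 7.13 and high-fat sham 3 lowest at 5.66, and the low-fat arrays spanned 6.01 to 6.48. With this scaling, the highest and the lowest of the 15 kidneys thus both lay in the high-fat sham group. With quantile normalization the SD was 0.32 in that group and 0.44 in high-fat 1-kidney.

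**Figure D3:**
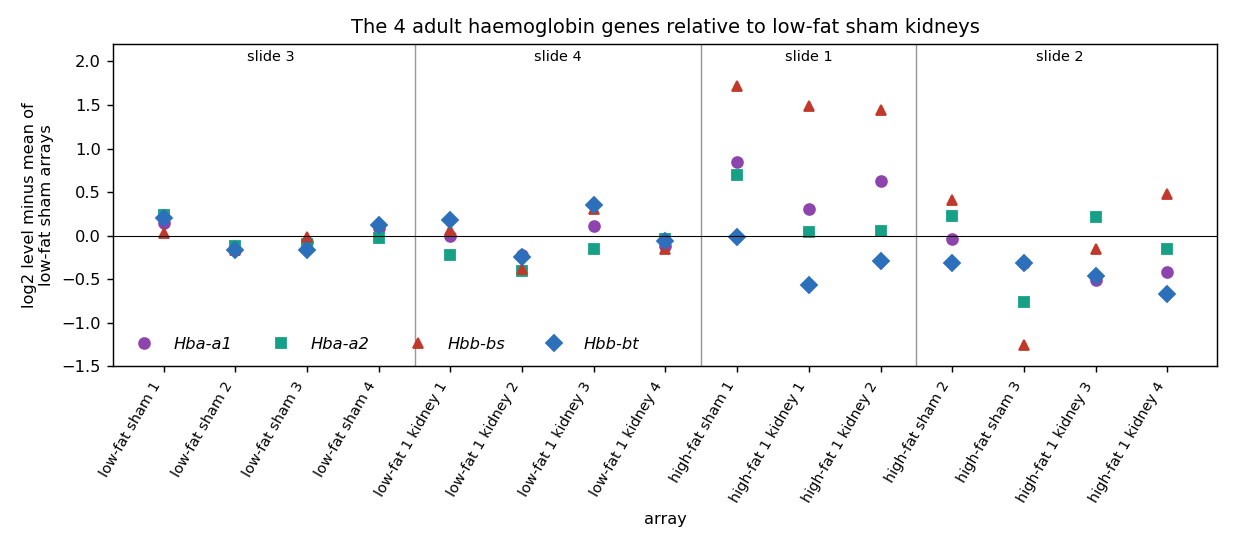
Level of the 4 adult globins on each array, as log2 difference from the mean of the low-fat sham arrays, with arrays grouped by slide. The globins lie close together on the low-fat arrays, while Hbb-bs lies 1.44 to 1.71 above the low-fat sham mean on the slide 1 arrays and Hbb-bt does not rise there.

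The globins were also compared with each other within each array. This comparison was added after the levels had been seen, so its p values rest on values already known. On the 8 low-fat arrays the difference Hbb-bs minus Hbb-bt, relative to its low-fat sham mean, stayed between -0.17 and 0.15. On the slide 1 arrays it was 1.72, 2.06 and 1.73, and on the slide 2 arrays 0.72, -0.93, 0.32 and 1.15. The change with diet was 1.41 in 1-kidney mice, with no overlap (exact permutation p = 0.0286, two-sided, the smallest that 4 against 4 arrays can give, adjusted over 6 tests 0.171), and 0.51 in sham mice, with overlap (exact p = 0.514). The difference between slides was 1.52, again with no overlap (exact permutation p = 0.0571, adjusted 0.171). For Hba-a1 minus Hba-a2 the change with diet was -0.18 in 1-kidney and 0.11 in sham mice and the slide difference 0.53, all with overlapping arrays (exact permutation p = 0.600, 0.571 and 0.171). A ratio within an array shows unequal change and does not say which gene moved, and none of the 6 tests passed after adjustment. Copies as alike as Hba-a1 and Hba-a2 can share signal between their probes, and the probes of the beta genes may do so too. Neither was tested, and the stretches before the genes do not describe their transcripts.

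The brightness of the arrays and of the Hba-a2 spot varied with the level. Across the 15 arrays the 75th percentile ran from 669 on high-fat sham 1 to 3275 on high-fat sham 3, a 4.90-fold range, whereas the Hba-a2 signal ran from 365852 to 650829, a 1.78-fold range. The raw Hba-a2 spot stood at 46.9% to 87.5% of the scanner's saturation value, and no member spot was saturated. Hba-a1 reached 19.4% to 70.7%, Hbb-bt 8.88% to 34.7% and Hbb-bs 1.55% to 5.52% of that value. The dimmest array, high-fat sham 1, gave the highest normalised Hba-a1, Hba-a2 and Hbb-bs, and the brightest, high-fat sham 3, the lowest Hba-a2 and Hbb-bs. The part of array brightness in these differences was not tested.

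**Figure D4:**
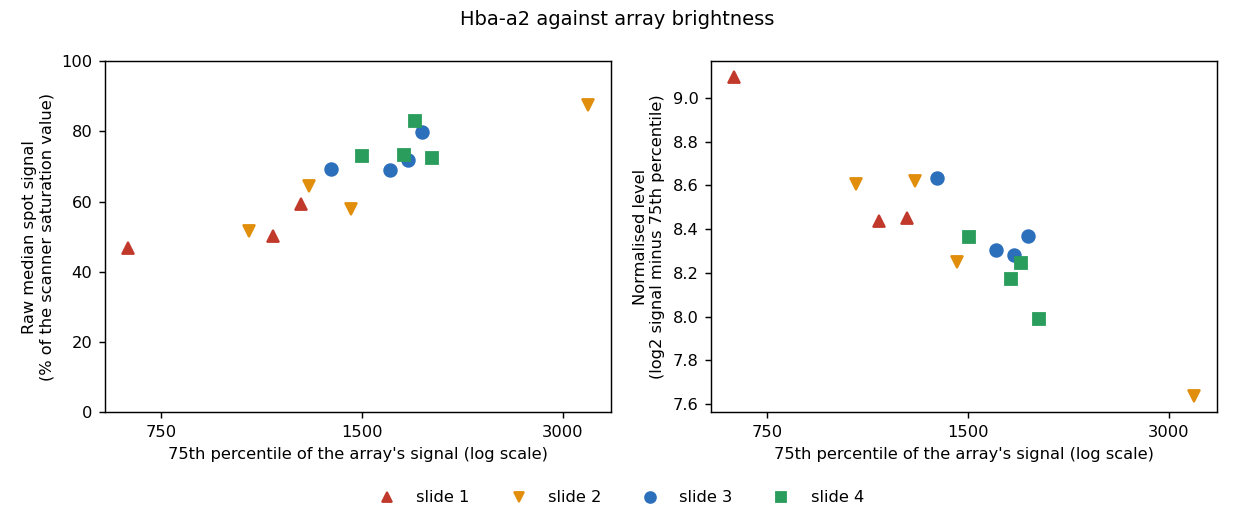
Raw median Hba-a2 spot signal as a percent of the scanner's saturation value (left) and normalised Hba-a2 level (right) against the 75th percentile of the array's signal, on a log axis, for each array. The raw spot rises from 46.9% to 87.5% across the arrays while the normalised level falls from 9.09 to 7.63 between the dimmest and the brightest array.

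Alas2 moved together with 3 of the 4 globins from mouse to mouse within the low-fat diet. Over the 8 low-fat arrays, Alas2 correlated with Hba-a1 (Pearson r = 0.922, exact permutation adjusted p = 0.0258), Hbb-bs (r = 0.898, adjusted p = 0.0234) and Hbb-bt (r = 0.872, adjusted p = 0.0447), and less with Hba-a2 (r = 0.377, adjusted p = 0.606). Spearman's rho was 0.857, 0.905 and 0.762 for the first 3, with exact permutation adjusted p of 0.0656, 0.0656 and 0.147, so the rank form did not pass. Without the 2 arrays farthest from the median, r was 0.951 for Hba-a1, 0.913 for Hbb-bs, 0.769 for Hbb-bt and -0.254 for Hba-a2. The 4 highest low-fat arrays were the same for Hbb-bt and Alas2, namely 1-kidney 1 and 3 and sham 1 and 4. Sham lies on slide 3 and 1 kidney on slide 4, which each hold 4 arrays, too few for an r of their own. The share of all genes reaching such an r within either diet is not given here. The r values are thus not shown to be particular to red cell genes. Over all arrays, with each group mean removed, 201 of 16012 genes (1.26%) had an r above 0.8 with Alas2. That number was 1056 with Hba-a1, 1030 with Hbb-bs, 296 with Hba-a2 and 6 with Hbb-bt.

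Over the 7 high-fat arrays, Hba-a1 correlated with Alas2 (r = 0.933, rho = 0.893, exact permutation adjusted p = 0.0265 for r and 0.0656 for rho) and r was 0.835 without the 2 farthest arrays. The r was 0.588 for Hbb-bs, 0.693 for Hbb-bt and 0.302 for Hba-a2, with exact permutation adjusted p of 0.403, 0.250 and 0.661, and 0.854, 0.225 and 0.112 without the 2 farthest arrays. Slides 1 and 2 hold 3 and 4 of these arrays, so an r within a slide cannot be given, and both genes differed between the slides. In all, 16 relations within a diet were computed. Hbb-bs with S100a8, Pf4, Slc4a1 and Ahsg, which mark neutrophils, platelets, red cells and liver, gave no adjusted p under 0.05, with r from -0.220 to 0.579. The highest, 0.579, was with Ahsg on the high-fat arrays. There Ahsg was well above background on only 1 of 3 sham and 1 of 4 1-kidney arrays.

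The genes most like each member were read after each group mean was removed from both, over 15 arrays and 16012 genes. A gene's own rank is 1. For Hbb-bt the closest genes were Unc93a2 (r = 0.838), Olfr285 (r = 0.833) and Cyp26b1 (r = 0.817), none of them in the red cell lists used. Tspo2, a protein of red cell precursors, was rank 5 (r = 0.813), Alas2 rank 14 (r = 0.738) and Hbb-bs rank 527 (r = 0.478). When each high-fat slide's mean was removed as well, Alas2 was rank 2 for Hbb-bt (r = 0.931). For Alas2, Hba-a1 ranked 4 (r = 0.907), behind Phrf1 and Map2k2, and Hbb-bs had r = 0.693. With each high-fat slide's mean removed as well, Hba-a1 was rank 34 for Alas2 (r = 0.734) and Hbb-bs had r = 0.164. For the mean haemoglobin level the closest non-members were Rps15 (r = 0.965), Ccdc124, Ppp1r37, Sf3b5, Ctrl, Mpp2, Gm8709, Pskh1, Anxa6 and Prdx5 (r = 0.940), none of which is a red cell gene in the lists used. The best of the 36 red cell and haem synthesis genes listed was Alad (r = 0.783, rank 950), and 800 of the 16012 genes had an r above 0.8. With each high-fat slide's mean removed as well, the best of the 36 was Tspo2 (r = 0.855, rank 132), and 345 genes had an r above 0.8. For Epor the closest 3 were Utrn, Ppl and Ptger1. These correlations share arrays and brightness and are given as a description.

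The other red cell genes gave no uniform shift. Of 16 listed red cell membrane and cytoskeleton genes, 9 were measured, and others, among them Epb42, Ank1, Add2, Rhag and Rhd, were not well above background on enough arrays. Dmtn, which binds actin in the membrane skeleton, fell by 0.60 with diet in sham and by 0.46 in 1-kidney mice (limma adjusted p = 0.0142 and 0.0307). It was the only 1 of the 9 called for diet, where 13.9% and 14.2% of all genes were. Between the slides, Sptb, the red cell beta spectrin, was called 1.28 higher on slide 1, and Kel was called as well, but above background on 3 of 15 arrays in all. These were 2 of 9, where 14.6% of all genes were called higher and 31.0% either way. The list's median was 0.00 for diet in sham, 0.01 in 1-kidney mice and 0.12 for the slides, with all genes at -0.02, -0.01 and -0.04.

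Of 20 red cell maturation genes and factors, 16 were measured and Gata1, the master erythroid factor, was not well above background on enough arrays. For diet 3 were called in sham and 4 in 1-kidney mice, where 13.9% and 14.2% of all genes were; with the slide as a random effect 14 and 26 genes in all were called for diet. Tent5c, a poly(A) polymerase, fell by 0.82 and 1.03, Prdx2, an antioxidant enzyme abundant in red cells, fell by 0.55 in sham mice, and Mkrn1 fell by 0.49 in 1-kidney mice. Gfi1b rose in 1-kidney mice, but was not well above background on the low-fat arrays. Between the slides 7 of 16 were called, 4 higher and 3 lower on slide 1, where 31.0% of all genes were called and 14.6% higher, among them Klf1, an erythroid transcription factor, 0.89 higher, Tmcc2 1.16 higher, and Car1, a carbonic anhydrase, which fell by 0.81.

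Of the other 11 haem synthesis genes, Glrx5, which supplies iron-sulphur clusters, rose by 0.54 in sham and 0.42 in 1-kidney mice on the high-fat diet. Between slides, 6 of 11 were called, where 31.0% of all genes were. Among them, Alad, the enzyme after the Alas step, was 0.76 and Ppox 0.60 higher on slide 1, and Abcb10, Cpox and Uros were lower. The list median was -0.02 for the slides. Among the other globins, 5 of 11 were measured, including Hbb-b2, well above background on 15 arrays. For diet in sham mice 1 of the 5 was called higher and 1 lower, where 13.9% of all genes were called. Cygb, the cytoglobin of fibroblasts, fell by 1.23 in that comparison. The embryonic globins Hbb-y, Hbb-bh1 and Hba-x were not well above background on enough arrays.

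In the erythropoietin signalling list, 15 of 16 were measured. None was called for diet in sham mice and 1 in 1-kidney mice, where 13.9% and 14.2% of all genes were. Kit, a receptor of blood stem and precursor cells, was 0.51 higher with diet in 1-kidney mice. Between the slides 6 of 15 were called, where 31.0% of all genes were, and Csf2rb was higher while Gata3, Grb2, Lyn, Stat5a and Stat5b, the latter 2 relaying the receptor's signal, were lower on slide 1. Of 19 oxygen sensing genes and targets of hypoxia-inducible factors, Egln3, an oxygen-sensing hydroxylase, rose by 0.95 and 0.92 on the high-fat diet, Pdk1, which diverts pyruvate from mitochondria, rose by 0.88 and 1.06, and Bnip3 fell by 0.66 and 0.55. Adm and Ldha, also targets, fell by 0.77 and 0.40 in sham mice. The list's median difference was 0.05 in sham and -0.06 in 1-kidney mice, so its members moved both ways. In the list of iron and haemoglobin clearance, 18 of 19 were measured, and Blvra, which reduces biliverdin made from haem, rose by 0.67 and 0.59 on the high-fat diet. Haptoglobin (Hp) fell by 2.24 and Hmox1, which degrades haem, by 0.83 in sham mice. No gene of these lists was called for surgery on either diet or for the interaction.

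Markers of other blood cells and tissues moved with diet or slide beside the globins, and their part in the globin differences was not tested. Their counts stand against 13.9% of all genes called for diet in sham and 14.2% in 1-kidney mice, and 14.6% called higher and 31.0% called either way between the slides. Of 9 measured neutrophil markers, 4 were called for diet in sham and 3 in 1-kidney mice: S100a8 fell by 2.22 and 1.80, S100a9 by 1.95 and 1.77, and Csf3r by 0.88 and 0.56, while Elane rose by 0.77 in sham mice. The mean level of the neutrophil list lay between -2.67 and -1.82 on the low-fat and between -3.33 and -2.54 on the high-fat arrays. Csf3r had group means of 5.05 to 5.93, against -1.20 to -0.25 for Elane and -4.93 to -4.59 for Camp. Whether its signal comes from neutrophils was not tested. None of 12 platelet markers was called for diet, and 2, Gp5 and Itga2b, were called higher on slide 1. Gp5 was well above background on only 5 of 15 arrays. Of 9 lymphocyte markers, 2 were called higher for diet in sham, 4 in 1-kidney mice and 3 on slide 1. Among these 9, Cd79a was well above background on 0 of 4 arrays in each low-fat group. It passed the filter through the high-fat arrays alone. Of 9 liver markers, 3 were called lower for diet in 1-kidney mice and 1 higher on slide 1, and of 7 adipocyte markers, 2 were called lower in sham and 1 higher in 1-kidney mice. Of 7 endothelial markers, 1 was called for diet in 1-kidney mice and 4 were higher on slide 1, among them Pecam1 by 0.97 and Tek by 1.01, and 2 of the 9 kidney markers were higher on slide 1.

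**Figure D5:**
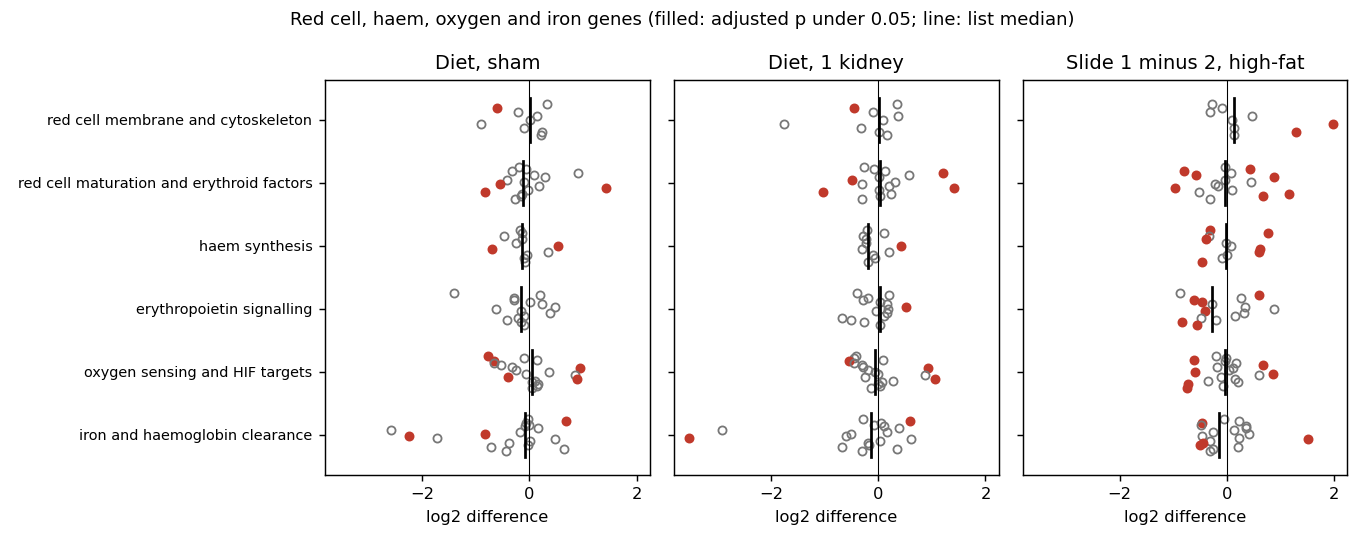
Log2 difference of each measured gene (points) in the lists of red cell, haem, erythropoietin, oxygen and iron genes, for diet in sham mice, diet in 1-kidney mice and slide 1 minus slide 2 of the high-fat arrays. Filled points passed limma's test, the thick line is the list median, and the medians lie close to 0 in the diet comparisons while single genes lie on both sides.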

How the data were processed

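Per the labels' protocols, 100 ng of kidney RNA from each of 15 mice was labelled with Cy3; per the file headers, the 1-colour arrays were Agilent's 4x44 design 026655. The authors' deposited intensity values came from Agilent Feature Extraction (10.7 in the submitters' processing notes; the file headers give 10.7.3.1). They are background-subtracted within an array, per the file headers, with no scaling across arrays. A value table of the authors repeats these signals, at 0.995 to 1.00 times the scanner values, with column medians from 56.7 to 251, and was an alternative. Slide and scan day were taken from the file headers.

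Signals were log2-transformed and scaled by subtracting the 75th percentile of the array's non-control probes; spots marked as outliers (74 to 273 per array) were dropped. Genes were named through RefSeq accessions in a table of assembly GRCm38.p6 (27234 of 39429 probes), used for names only. A probe was kept if 3 or more arrays had it well above background, and the brightest probe stood for its gene. Limma 3.58.1 (R 4.3.3, statmod 1.5.0; lmFit and eBayes) was fitted on all 15 arrays with 1 mean per group, plus slide within the high-fat arrays for the slide comparison, coded so that group means average over both slides. The threshold was a Benjamini-Hochberg adjusted p of 0.05; all tests were two-sided. The limma step was run on simulated arrays with known changes, drawn without slide or scan-day effects, so it does not cover those. Between 4% and 32% of 1.5-fold and between 40% and 66% of 2-fold changes were called. Correlations and within-array differences used exact permutation tests (scipy 1.17.1).

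The members and lists were chosen with earlier results of these data known. Named genes were the 7 members, up to 4 genes with the lowest p per list and comparison that passed, and the genes closest in pattern; Lyn, Stat5a, Ldha, Abcb10, Cpox and other list members beyond these were picked with their values in view. Some genes of the lists are not reported here. The background alternative used the raw median spot signal, where the mean had been planned, since the files used here have no mean signal column. Alternatives changed normalization, background, value source, dim-probe filter, probe choice, slide, replicate block, arrays fitted, threshold and single arrays; within-slide values, the slide-centred likeness, the within-array differences and a recoding of the fixed slide block came after seeing the data. Same-numbered arrays are different mice. Over all groups 5 of 21 same-numbered pairs correlated above 0.1 in their deviations from group means (-0.15 to 0.43). Between high-fat sham and high-fat 1-kidney all 3 did (0.435, 0.122 and 0.331). The pairs at 0.435 and 0.331 each share a slide, so number and slide cannot be told apart for them. The labels give no pairing, and whether the numbers pair the arrays was not tested. The main fits did not pair arrays, and the replicate block was an alternative.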

Additional observations from a re-analysis of the deposited data

How the results depend on the processing

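Of the member differences, 510 of 540 kept direction and side of the threshold when 1 array was left out, and 395 of 414 under the other settings, without those added after seeing the data; 23 and 6 changed sign, 4 and 5 lost and 3 and 8 gained the call. No member passed for surgery or the interaction in any setting run. The number of members called for diet in sham mice (0) became 1 with quantile normalization, median scaling, the filter on all 15 arrays, the threshold of 0.10 and the fixed slide block, each time Epor, and 2 with no filter, where Epo was called from arrays nearly all not well above background. For diet in 1-kidney mice (1) it was 0 with normexp, the random slide block and only the compared groups, where Hbb-bt had limma adjusted p of 0.292, 0.361 and 0.0538, and 2 with the fixed slide block (Hbb-bt at limma adjusted p = 0.0126 and Alas2 at 0.0366). The fixed block was recoded after its output was seen; as first coded, with the high-fat means at slide 2, it called 1 member in sham mice (Alas2, -0.64) and 3 in 1-kidney mice (Alas2 -0.91, Hbb-bt -0.66, Hba-a1 -0.42), and read -0.25 for Hbb-bs, -0.16 for Hba-a1 and -0.079 for Hba-a2 in sham and -0.018 for Epor in 1-kidney mice. Leaving out 1 array gave 0 to 1 members for diet in sham, 0 to 1 in 1-kidney mice and 3 to 3 for the slides. The cause was not tested. Over all genes the counts for diet in sham and 1-kidney mice were 161 and 316 with normexp, 14 and 26 with the random slide block, 4474 and 4101 with the fixed slide block, 4850 and 3596 with no filter and 3498 and 3462 at 0.10, and in sham mice 1433 with median scaling and 1181 with only the compared groups. Leaving out 1 array gave 1210 to 2718 and 1297 to 3306. For the slides they were 2086 with normexp, 1141 with only the high-fat arrays and 3270 to 6372 without 1 array.

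The sign changes were in differences of at most 0.57 in size with limma adjusted p of at least 0.521. Hba-a1 for diet in 1-kidney mice read -0.028 with median scaling and -0.15 with quantile normalization, where Hba-a2 read -0.0028 and, in sham mice, -0.0056. Hbb-bt for surgery on the low-fat diet read -0.0016 with normexp. The relation of Hbb-bs with Pf4 on the low-fat arrays was r = 0.010 with quantile normalization. With each array left out in turn, the differences that changed sign ran over these ranges. Hba-a1 ran from -0.15 to 0.23 for diet in 1-kidney mice, -0.18 to 0.40 in sham mice, -0.34 to 0.24 in the interaction and -0.39 to 0.18 for surgery on the high-fat diet. Hba-a2 ran from -0.27 to 0.46 for diet in sham mice, -0.22 to 0.51 in the interaction and -0.42 to 0.31 for surgery on the high-fat diet. Hbb-bs ran from -0.42 to 1.06 for diet in sham mice, -0.20 to 1.28 in the interaction, -0.25 to 1.23 for surgery on the high-fat and -0.16 to 0.072 on the low-fat diet. Hbb-bt ran from -0.041 to 0.16 for surgery on the low-fat diet and Alas2 from -0.35 to 0.082 in the interaction. The group means of the haemoglobin level moved by less than the spread between arrays under every alternative run, and the slide difference lay between 0.61 and 0.82. The spread itself did move. With quantile normalization the SD was 0.32 in high-fat sham, against 0.74 in the main setting, and 0.44 in high-fat 1-kidney, against 0.35.

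With the replicate block, no member and no gene was called for surgery on the high-fat diet, as without it; 1 member was called for diet in sham mice (Epor, 0.92, limma adjusted p = 0.0324), 1 in 1-kidney mice and 2 for the slides, where Hbb-bs had 0.0509 and Epor read -0.36, and 2396 genes were called in all. Signal over background limits Epo, and 3 or 4 mice per group leave wide intervals for Hbb-bs.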
